A study of Mus musculus with 3 samples.

Results

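The nuclear genes for subunits of the mitochondrial respiratory chain were followed through LLC1 tumours grown in the tibia of 3 kinds of host. The members are the gene identifiers whose symbols begin as those of subunits of complex I (Nduf genes of the a, b, c, s and v series), complex II (Sdha to Sdhd), complex III (Uqcr genes and Cyc1), complex IV (Cox4i to Cox8 genes) and complex V, the ATP synthase (Atp5 genes). They number 87 of 55357 identifiers, 37 in complex I, 4 in complex II, 9 in complex III, 19 in complex IV and 18 in complex V. The rule reads symbols only. LLC1 is a mouse Lewis lung carcinoma line, and 1000000 of its cells were placed in the marrow cavity of the right tibia of 8-week-old mice. The hosts were wild type (WT, with no Cre named), DMP1-Cre Mfn2-/- or DMP1-Cre Rhot1-/-. On day 14 the tumours of 3 mice were pooled in equal parts per genotype, digested, sorted for live cells and sequenced as single cells in droplets, from the 3' ends of transcripts.

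Mfn2 encodes mitofusin 2, which joins mitochondrial outer membranes, and Rhot1 encodes Miro1, which couples mitochondria to transport along microtubules. DMP1-Cre is active in osteocytes and other late cells of the bone-forming lineage, so the injected tumour cells themselves should carry neither deletion. Because the control is named without Cre, carrying Cre and losing the gene cannot be told apart. Each genotype was 1 pooled library whose cells are not assigned to mice, so differences between pools have no replicate check and no test. Intervals of levels, shares and ratios are 95% intervals of counting error only and treat unique molecular identifiers (UMIs) as independent.

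The respiratory chain moves electrons from NADH and succinate to oxygen and stores the energy as a proton gradient that the ATP synthase spends. Complex I takes electrons from NADH, complex II from succinate, complex III passes them from ubiquinone to cytochrome c, and complex IV hands them to oxygen. Most subunits are made from nuclear genes, a small core is made from the mitochondrial genome, and complex II is wholly nuclear. Osteoclasts are known for abundant mitochondria, whereas neutrophils rely largely on glycolysis.

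The wild-type, Mfn2 and Rhot1 pools kept 9022, 9570 and 9135 cells, with medians of 9775.5, 10849 and 12121 UMIs per cell. Of the kept cells, 49, 49 and 38 had a barcode also seen in another pool. Mfn2 stood at 16.2, 20.3 and 20.7 UMIs per 1000000 UMIs (CPM) and Rhot1 at 23.1, 23.7 and 25.2 CPM over all kept cells. These levels do not check the genotypes, since the deletion should lie in osteocytes and the osteocyte genes Dmp1 and Sost had 9, 6 and 3 UMIs and 1, 0 and 0 UMIs. Tumour-like clusters were named from a list of 6 markers. Krt8, Krt18 and Hmga2 stood at 10 CPM or more in them, Krt7 and Krt19 below 10 CPM and Epcam at 0. These clusters held 4204, 5609 and 5509 cells. Their medians were 17214.5, 15561 and 16534 UMIs per cell, and clusters that no marker list named held 25.1%, 16.7% and 18.4% of cells.

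GENCODE types Cox6c2, of complex IV, as a processed pseudogene and Ndufb1, of complex I, as a non-coding RNA. Of the 87 members, 86 had at least 1 UMI, and the members held 6994333 UMIs in all. Atp5o occurs under a pair of identifiers, and the one with 0 UMIs (ENSMUSG00000116933), which allows up to 3, shared 86.0% of its 3' sequence words of 50 bases with other genes. Some shared words occurred in 43 members, 35.2% of those of Cox7c and 51.4% of those of Atp5g2, so the counts of such members may be split with pseudogene copies and are uncertain. All levels are 3' tag counts and are not scaled to transcript length, so they are compared between libraries and classes rather than between genes.

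The genes of this set have long been studied for shared promoter elements bound by NRF1, by ETS factors such as GABP and by YY1. In RefSeq promoter windows of GRCm38.p6, from 250 bases before to 50 bases after the start, 69 of 86 member symbols were found. The long NRF1 core lay on either strand in 5 of 69 members (7.25%) and in 1.07% of 27025 genes. The shorter NRF1 letters GCATGCGC, which lie within it, were in 10 members (14.5%) against 3.05%. The ETS letters CCGGAAG were in 17 members (24.6%) against 9.93%. The YY1 letters AAGATGGC were in 10 members (14.5%) against 3.19%, among them 7 of 33 members of complex I and 0 of 13 of complex IV. A match is only a match of letters, and its absence says only that they are not in the window. The exon-free stretches before the starts of 4 members are shown, with matches in capitals, because these genes stand high or low in the comparisons that follow. The 4 members were chosen after their matches and values had been seen. Bases in GENCODE exons were cut off, and the stretches left hold different combinations of the letters. Over their whole windows Cox6a1, Uqcr11 and Atp5l each held the shorter NRF1 letters and the ETS letters. The positions and letters that follow are those of the stretches. Cox6a1 lies at chr5:115348982-115349129 (minus strand) and holds the NRF1 letters. Uqcr11 lies at chr10:80406831-80407071 (minus strand) and holds the ETS letters. Atp5l lies at chr9:44920752-44920992 (minus strand) and holds the shorter NRF1 letters and, on the other strand, the ETS letters. Cox5b lies at chr1:36691237-36691448 (plus strand) and holds none of the 4.
Cox6a1: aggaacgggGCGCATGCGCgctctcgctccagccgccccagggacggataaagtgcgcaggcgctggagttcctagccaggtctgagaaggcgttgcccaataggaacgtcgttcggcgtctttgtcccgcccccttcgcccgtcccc
Uqcr11: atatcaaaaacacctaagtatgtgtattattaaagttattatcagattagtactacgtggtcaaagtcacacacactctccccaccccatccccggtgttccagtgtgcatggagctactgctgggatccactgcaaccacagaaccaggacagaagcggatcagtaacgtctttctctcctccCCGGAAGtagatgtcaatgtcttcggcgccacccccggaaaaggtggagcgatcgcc
Atp5l: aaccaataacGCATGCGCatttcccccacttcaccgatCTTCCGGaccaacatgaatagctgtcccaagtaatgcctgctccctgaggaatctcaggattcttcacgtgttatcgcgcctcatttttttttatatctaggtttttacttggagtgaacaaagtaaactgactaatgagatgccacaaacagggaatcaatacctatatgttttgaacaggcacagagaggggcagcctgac
Cox5b: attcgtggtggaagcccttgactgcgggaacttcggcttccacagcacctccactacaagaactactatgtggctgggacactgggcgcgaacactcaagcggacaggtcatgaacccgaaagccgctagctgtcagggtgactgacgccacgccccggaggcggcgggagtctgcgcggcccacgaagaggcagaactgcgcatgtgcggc

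The members together took about the same share of UMIs in tumour-like cells as in most infiltrating cells, a far larger share in osteoclast-like cells and a smaller one in neutrophil-like cells. Their summed level in tumour-like cells was 22256 CPM in the WT pool, 20316 CPM in the Mfn2 pool and 20869 CPM in the Rhot1 pool. Macrophage-like cells stood at 22573, 20094 and 21461 CPM, monocyte-like cells at 26892, 25019 and 25425 CPM, and T cell-like cells at 24202, 21902 and 24656 CPM. NK cell-like cells stood at 24801, 21562 and 24422 CPM, dendritic cell-like cells at 22740, 22847 and 23094 CPM, and B cell-like cells at 19326, 16563 and 21360 CPM. The B cell-like levels rest on 45, 15 and 17 cells, with 19.7%, 12.2% and 36.6% of member UMIs in a single cell. Krt8, Krt18 and Hmga2 together stood there at 69.8%, 17.1% and 43.6% of their tumour-like level, and their part was not tested. The NK cell-like cells of the Mfn2 pool were 36, with 24.5% of member UMIs in a single cell. Neutrophil-like cells had 13547, 14673 and 13468 CPM, below each other class in the same pool. Osteoclast-like cells had 56871, 51406 and 36102 CPM, above each other class, but were only 20, 3 and 2 cells, with 10.2%, 66.2% and 50.4% of the member UMIs in a single cell. The WT pool was the highest of the 3 in tumour-, macrophage-, monocyte-, NK cell- and osteoclast-like cells, but not in T, B, dendritic or neutrophil-like cells.

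**Figure D1:**
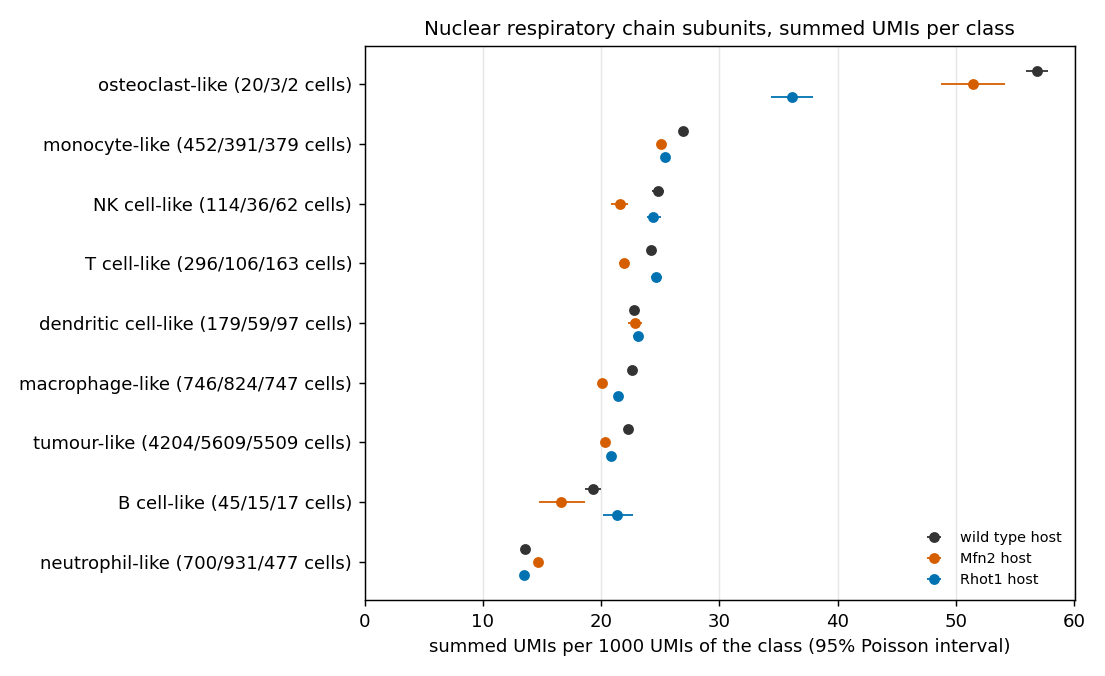
Summed level of the 87 members in 9 classes (horizontal groups) and 3 pools (colours), in UMIs per 1000 UMIs of the class, with 95% Poisson intervals of counting error as bars. Osteoclast-like cells stand highest and neutrophil-like cells lowest in each pool, and the wild-type point is the highest of the 3 in tumour- and macrophage-like cells.

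The 5 complexes kept nearly constant proportions in tumour-like cells. In the WT pool complex I gave 30.1% of member UMIs, complex II 1.5%, complex III 12.4%, complex IV 25.5% and complex V 30.4%. In the Mfn2 pool the shares were 29.5%, 1.5%, 12.7%, 26.0% and 30.2%, and in the Rhot1 pool 29.4%, 1.6%, 12.6%, 25.7% and 30.7%.

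In tumour-like cells of both knockout hosts most nuclear subunits stood slightly below the WT pool. The summed ratio to wild type was 0.913 (0.911 to 0.915) in the Mfn2 pool and 0.938 (0.936 to 0.940) in the Rhot1 pool. Of 78 members measured at 10 CPM or more, 71 and 65 had a log2 ratio below 0, and the medians were -0.15 and -0.10 on the log2(CPM + 5) scale. The medians over all genes measured were 0.01 and 0.06. With a limit of 0.32 in log2 size, 5 members were lower and 0 higher in the Mfn2 pool, where 4.09% of all genes were lower and 7.32% higher. In the Rhot1 pool 6 were lower and 0 higher, where 3.00% of all genes were lower and 7.92% higher. So few members passed the limit, while most differed from wild type by a small amount. Counting intervals lay below a ratio of 1 for 68 and 62 of the 78 and above 1 for 4 and 8. Counts below 0 and counts by interval are not given over all genes, here or in the paragraphs that follow. So these counts do not by themselves set the members apart from other genes. Both comparisons use the same WT pool, so they are not independent of each other.

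The share of mitochondrial reads, and the summed fibroblast markers, differed between the same pools. The median share of UMIs from mt- genes in tumour-like cells was 1.08%, 1.30% and 1.48%. The 6 fibroblast markers, 3 of them at 10 CPM or more and none at 0, summed to 645, 369 and 308 CPM. Dcn, a marker of that list, was among the leading genes of tumour-like clusters 1 and 4. The part of the mt- share or of the fibroblast markers in the lower member levels was not tested. The members' medians stayed below 0 when unnamed clusters with tumour marker RNA were added to the class, and when the 7 tumour-like clusters were weighted alike.

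Among members at 50 CPM or more, the lowest ratio in both pools was that of a complex I gene. Ndufa1, a small membrane subunit (ENSMUSG00000016427, mm10 chromosome X, 37187588 to 37191163), stood at 107 CPM in the WT pool, 80.2 in the Mfn2 pool and 80.7 in the Rhot1 pool. Both knockout values were alike and below wild type, with log2 ratios of -0.39 and -0.39 and ratios of 0.750 (0.727 to 0.773) and 0.754 (0.731 to 0.778). Ndufb11, another membrane-arm subunit (ENSMUSG00000031059, chromosome X, 20615326 to 20617619), stood at 171, 133 and 132 CPM, log2 ratios of -0.35 and -0.37. Ndufa3 stood at 85.1, 65.7 and 69.1 CPM and Ndufc1 at 279, 222 and 240 CPM, so these also had wild type as the highest library, with the Rhot1 value between the others. At the other end, Ndufb9 stood at 426, 435 and 435 CPM and Ndufa6 at 157, 158 and 158 CPM. Ndufa12 stood at 162, 148 and 168 CPM, the only one of these with the knockout pools on opposite sides of wild type. Over the 37 members the median log2 ratio was -0.17 in the Mfn2 pool and -0.14 in the Rhot1 pool, with 34 and 32 below 0. Ndufa4, named for complex I but known as a subunit of complex IV, stood at 325, 285 and 287 CPM.

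Complex II lay nearest to wild type in the Rhot1 pool but not in the Mfn2 pool. Sdha, the flavoprotein that oxidises succinate, stood at 95.5, 91.5 and 97.8 CPM, and Sdhb, its iron-sulphur partner, at 137, 124 and 138 CPM. The membrane anchors Sdhc and Sdhd stood at 64.0, 57.2 and 61.5 CPM and at 41.3, 38.4 and 39.9 CPM. All 4 were lowest in the Mfn2 pool, while in the Rhot1 pool 2 were below and 2 above wild type. The summed ratios were 0.921 in the Mfn2 pool and 0.996 (0.980 to 1.013) in the Rhot1 pool, whose interval holds 1.

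In complex III, 8 of 9 members lay below wild type in each knockout library, and Uqcrh, the hinge protein, lay above it in both. Uqcrh (ENSMUSG00000063882, chromosome 4, 116066965 to 116075071) stood at 435, 468 and 484 CPM, ratios of 1.075 (1.060 to 1.091) and 1.114 (1.099 to 1.130). Uqcrb, a ubiquinone-binding subunit, was the lowest by ratio, at 275, 232 and 234 CPM. Uqcr11, a small subunit, stood at 367, 323 and 336 CPM and Cyc1, cytochrome c1, at 181, 162 and 166 CPM. Uqcrfs1, the Rieske iron-sulphur protein, was closer to wild type at 134, 127 and 130 CPM. The medians were -0.15 and -0.11.

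Complex IV had members on both sides of wild type. Cox5b (ENSMUSG00000061518, chromosome 1, 36691449 to 36693681) stood at 637 CPM in the WT pool against 509 and 507 CPM, ratios of 0.800 (0.790 to 0.810) and 0.797 (0.787 to 0.807). Cox7c stood at 567, 479 and 454 CPM and Cox6c at 519, 422 and 467 CPM. In the opposite direction stood Cox7a2l, which helps to join complexes III and IV into supercomplexes, at 402, 440 and 420 CPM, and Cox7b at 343, 356 and 363 CPM. Cox6a1 (ENSMUSG00000041697, chromosome 5, 115345642 to 115348981) stood at 189, 191 and 210 CPM, so only its Rhot1 value was apart, with a ratio of 1.115 (1.091 to 1.139). The abundant Cox4i1, at 851, 817 and 824 CPM, and Cox8a, at 839, 765 and 828 CPM, lay between these extremes. The median of the 11 measured members was -0.06 in the Mfn2 pool and -0.05 in the Rhot1 pool.

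All 17 measured subunits of the ATP synthase lay below wild type in the Mfn2 pool and 15 of 17 in the Rhot1 pool, with medians of -0.17 and -0.07. The catalytic beta subunit Atp5b stood at 1146, 1081 and 1136 CPM and the alpha subunit Atp5a1 at 528, 518 and 528 CPM. Several other subunits lay further from wild type. Atp5md stood at 303, 247 and 269 CPM, Atp5j2 at 441, 368 and 379 CPM, and Atp5l at 84.6, 72.9 and 67.6 CPM. Atp5md had the lowest ratio of the complex in the Mfn2 pool (log2 ratio -0.29), and Atp5l among members at 50 CPM or more in the Rhot1 pool (-0.30). Atp5o was above wild type only in the Rhot1 pool, at 142, 140 and 151 CPM.

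**Figure D2:**
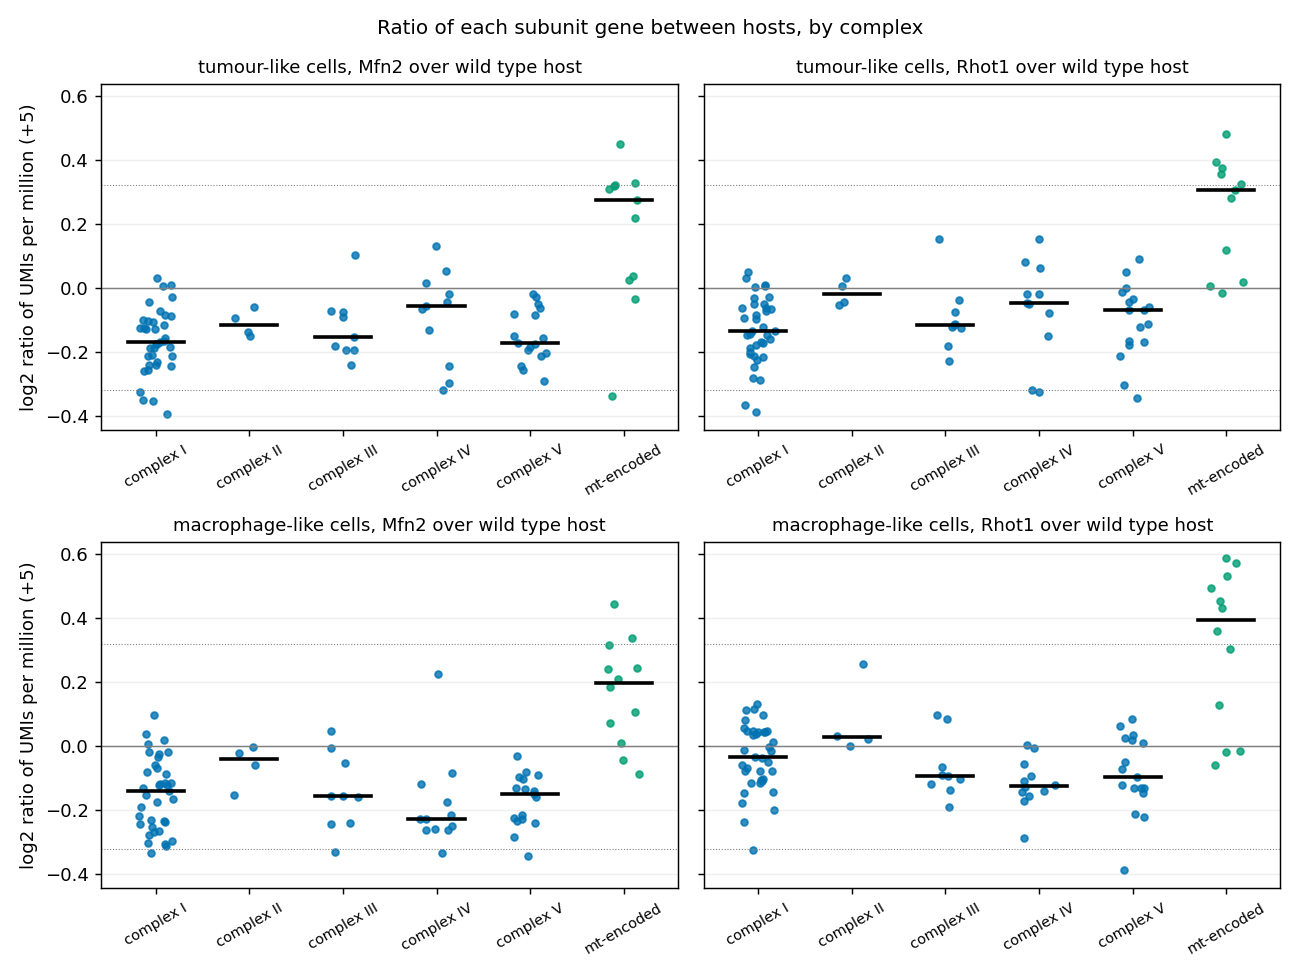
Log2 ratio to wild type of each measured member by complex (blue) and of each mitochondrially encoded subunit (green), in tumour- and macrophage-like cells of the Mfn2 and Rhot1 pools. Bars are medians and dotted lines mark 0.32 in size. Nuclear members of tumour-like cells crowd just below 0, with medians from -0.17 to -0.02, while mitochondrially encoded subunits have medians of 0.28 and 0.31.

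Subunits made from the mitochondrial genome stood on the other side of wild type. Of 13 listed, 11 were measured in tumour-like cells, with median log2 ratios of 0.28 in the Mfn2 pool (4 higher and 1 lower) and 0.31 in the Rhot1 pool (6 higher and 0 lower). mt-Cytb, of complex III, stood at 3572, 4883 and 4983 CPM, with mt-Nd1, of complex I, at 1399, 1627 and 1754 CPM and mt-Nd4 at 1190, 1475 and 1545 CPM. For each of these the WT pool was the lowest. mt-Co1, the catalytic subunit of complex IV, stood at 639, 650 and 648 CPM, close to equal, and mt-Nd6 at 23.7, 17.7 and 23.8 CPM.

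Other genes of the pathway had medians from -0.09 to 0.07 in tumour-like cells, where all genes had 0.01 and 0.06. Values are given for the Mfn2 and then the Rhot1 pool. Complex I assembly factors were at -0.01 and -0.03 (1 and 0 of 13 lower), complex IV assembly factors at 0.06 and 0.06 (2 of 21 and 0 of 20 lower) and complex V assembly factors at -0.09 and -0.03. Electron carriers and ubiquinone synthesis were at -0.04 and 0.01, the tricarboxylic acid cycle at -0.07 and -0.06, and mitochondrial ribosomal proteins at -0.06 and -0.01 (1 of 77 and 0 of 76 lower). No member of these lists was higher by the limit in either library. Cox20, a chaperone of complex IV assembly, was the lowest of its list at 51.2, 39.2 and 41.4 CPM. Cytochrome c (Cycs) stood at 272, 242 and 254 CPM, Ndufab1, the acyl carrier protein of complex I, at 65.5, 57.7 and 59.1 CPM, and Atpif1, an inhibitor of the ATP synthase, at 569, 540 and 559 CPM. Known regulators of the genes were at 0.02 and 0.07, with 0 of 13 past the limit. Among them Nrf1 stood at 26.3, 26.4 and 27.8 CPM, Tfam, which drives mitochondrial DNA maintenance, at 45.6, 47.3 and 50.8 CPM, and Esrra at 17.0, 20.5 and 19.9 CPM. Cytosolic ribosomal proteins were at -0.01 and -0.05. The hypoxia list was on opposite sides of wild type, with medians of 0.24 (5 of 13 higher) and -0.15 (3 of 13 lower and 1 higher). The part of hypoxia in the member levels was not tested.

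The lower levels in the knockout pools were seen inside each of the 7 tumour-like clusters, whose mix differed between libraries. The cluster led by the proliferation genes Cenpf and Ube2c (cluster 0) held 511, 1321 and 1570 cells, and its members summed to 23263, 21419 and 21324 CPM. The cluster led by Igfbp4 and Pcolce (cluster 2) held 1139, 511 and 790 cells, at 22778, 20276 and 20880 CPM. Over the 7 clusters the ratio to wild type ran from 0.885 to 0.938 in the Mfn2 pool and from 0.899 to 0.934 in the Rhot1 pool. Cluster 6, led by Wfdc2 and Rhox5, stood at 24138, 21374 and 22225 CPM, the highest cluster of the WT and Rhot1 pools, while cluster 0 was the highest of the Mfn2 pool.

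Between the tumour-like clusters, the one led by Adm, Mt2 and Ndrg1 (cluster 4), of which Adm and Ndrg1 are hypoxia genes, gave the members the smallest share of its UMIs in each pool. It held 813, 960 and 498 cells, and its summed level was 19573, 18362 and 18287 CPM, ratios to the other tumour-like clusters together of 0.851, 0.885 and 0.866. This comparison was chosen after its values were seen, and the clusters were made from the same counts. In the WT pool 31 of 78 members were lower and 1 higher, where 26.0% of all genes were lower and 10.9% higher, and the median log2 ratio was -0.25 against -0.10 over all genes. The medians of the Mfn2 and Rhot1 pools were -0.19 and -0.22, against -0.10 and -0.12 over all genes. Complexes I and II were the lowest in the WT pool, at ratios of 0.796 and 0.764, and complex IV the nearest to 1 at 0.913. Uqcr11 stood at 254 CPM in cluster 4 against 398 in the others, and Sdhb at 97.0 against 148. Cox7a2l went the other way in each pool, at 485 against 379 CPM in wild type, 484 against 431 in Mfn2 and 472 against 415 in Rhot1. Uqcrq was also on that side, at 602 against 555 CPM in wild type.

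**Figure D3:**
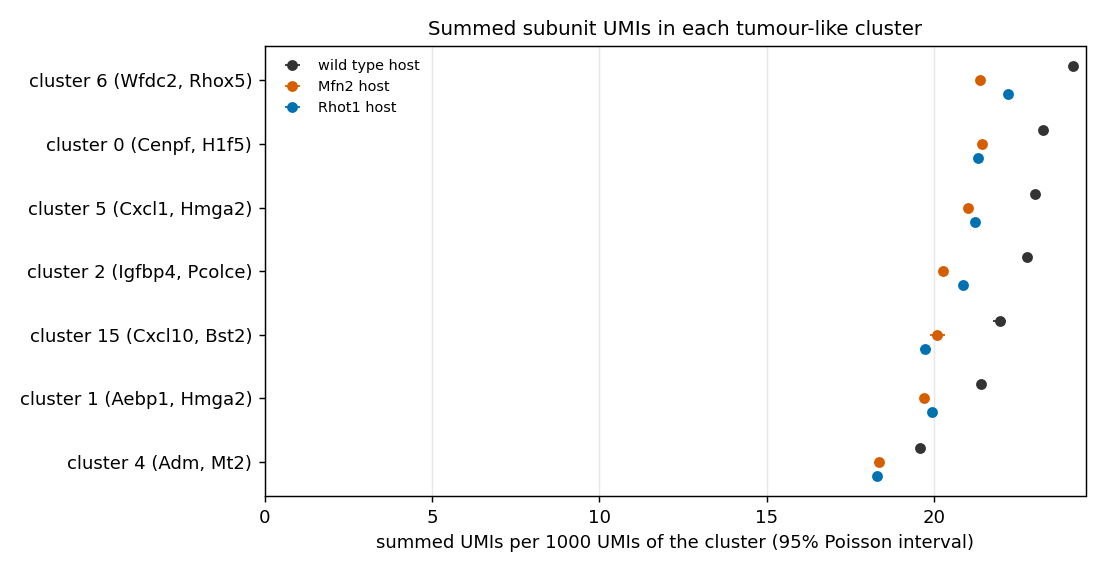
Summed member level in the 7 tumour-like clusters, in UMIs per 1000 UMIs of the cluster, for the 3 pools, with 95% Poisson intervals. The wild-type point is the highest in each cluster, and cluster 4 is the lowest in each pool.

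Macrophage-like cells, with 8 of 8 macrophage markers at 10 CPM or more, numbered 746, 824 and 747 and had medians of 6134, 4864.5 and 5834 UMIs. Here too the members stood lower in the knockout pools, more so in Mfn2. The summed ratios were 0.890 (0.882 to 0.898) and 0.951 (0.943 to 0.959), with median log2 ratios of -0.16 and -0.07 against -0.01 and 0.04 over all genes. Of 79 measured members 73 and 51 were below 0. By the limit 5 were lower and 0 higher in the Mfn2 pool, where 10.9% of all genes were lower and 10.4% higher. In the Rhot1 pool 2 were lower and 0 higher, where 6.00% were lower and 11.8% higher. At this depth counting intervals lay below 1 for 48 and 25 members and above 1 for 0 and 1, again without a count over all genes beside them. Tumour markers, 2 of 6 at 10 CPM or more and Krt19 and Epcam at 0, summed to 99.0, 147 and 125 CPM in these cells, and 6 erythroid markers to 9.54, 492 and 366 CPM. The part of either in the member levels was not tested.

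Complex IV differed most in macrophage-like cells of the Mfn2 pool, with a median of -0.23 and a summed ratio of 0.869, and at 0.927 it was also the lowest by ratio in the Rhot1 pool. Cox7c stood at 539, 427 and 441 CPM, Cox6b1 at 581, 484 and 525 CPM and Cox8a at 867, 741 and 813 CPM. Cox6a1 and Cox7a2l, at or above wild type in tumour-like cells, were below it in macrophage-like cells of the Mfn2 pool, at 293, 243 and 294 CPM and at 347, 298 and 317 CPM. The difference between the classes was not tested. In complex III the Rieske protein Uqcrfs1 stood at 121, 95.2 and 113 CPM. In complex I, Ndufa12 stood at 86.9, 67.9 and 82.1 CPM. Complex II stood at summed ratios of 0.951 and 1.039, and Sdhd, at 52.0, 51.1 and 63.0 CPM, was the member whose Rhot1 interval lay above 1 (1.02 to 1.44). In complex V, Atp5e stood at 849, 721 and 733 CPM, and Atp5b at 591, 550 and 618 CPM.

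Mitochondrially encoded subunits stood above wild type in macrophage-like cells as well. Their medians were 0.20 in the Mfn2 pool (2 of 12 higher) and 0.39 in the Rhot1 pool (7 of 12 higher), with mt-Cytb at 2227, 2818 and 3136 CPM and mt-Nd2 at 837, 1140 and 1247 CPM. The median share of mt- UMIs was 0.913%, 1.05% and 1.27%. Cytosolic ribosomal proteins had medians of -0.13 and -0.15 in these cells, mitochondrial ribosomal proteins -0.10 and -0.03 and the tricarboxylic acid cycle -0.13 and -0.02. So in the Mfn2 pool the members' median of -0.16 was close to that of the cytosolic ribosomal proteins, and in the Rhot1 pool the cytosolic ribosomal proteins stood lower than the members did. The hypoxia list stood at 0.14 and -0.26, as in tumour-like cells on opposite sides of wild type.

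Monocyte-like cells (452, 391 and 379 cells) had summed ratios of 0.930 and 0.945 and medians of -0.09 and -0.06. The 8 neutrophil markers, 8 of them at 10 CPM or more, summed to 2042, 4570 and 2804 CPM in these cells, higher in both knockout pools, and their part was not tested. In the Mfn2 pool 11 of 79 members were lower and 1 higher (16.8% and 18.7% of all genes), and in the Rhot1 pool 3 and 0 (14.7% and 17.3%). Ndufb4, a membrane-arm subunit of complex I, had the lowest ratio in both, at 44.9, 26.2 and 24.8 CPM. Uqcrfs1 was next, at 188, 134 and 151 CPM. Ndufs7, which carries an iron-sulphur cluster near the ubiquinone site, had the highest Mfn2 ratio at 135 against 172 CPM.

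T cell-like cells (296, 106 and 163 cells) differed between the knockout hosts. The summed ratio was 0.905 (0.885 to 0.925) in the Mfn2 pool and 1.019 (0.995 to 1.043) in the Rhot1 pool. In the Mfn2 pool 25 of 78 members were lower and 6 higher (29.2% and 33.1% of all genes), and in the Rhot1 pool 8 and 8 (28.2% and 25.0%). Ndufa1 stood at 205, 105 and 145 CPM and Atp5o at 240, 134 and 234 CPM, while Cyc1 stood at 116, 178 and 143 CPM. The tumour markers Krt8, Krt18 and Hmga2, which T cells lack, summed to 301, 693 and 186 CPM here against 1145, 1358 and 1233 CPM in tumour-like cells. They were highest in the pool whose members were lowest. The 8 T cell markers summed to 4153, 2618 and 4559 CPM, lowest in the same pool, and the 8 neutrophil markers, 5 at 10 CPM or more, to 1853, 269 and 559 CPM. The part of these RNAs was not tested.

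Dendritic cell-like cells (179, 59 and 97 cells) had summed ratios of 1.005 and 1.016. By the limit 10 of 80 members were lower and 10 higher in the Mfn2 pool (31.4% and 30.9% of all genes) and 4 and 5 in the Rhot1 pool (22.8% and 31.3%). Ndufb4 was low here as well, at 35.4, 19.4 and 14.3 CPM, on few UMIs. Cyc1 had the highest Mfn2 ratio, at 112 against 178 CPM, with an interval of 1.09 to 2.28.

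Neutrophil-like cells (700, 931 and 477 cells) were shallow, with medians of 1153, 1078 and 1294 UMIs. Only B cell-like cells were shallower, at 1132, 1037 and 1069 UMIs. In neutrophil-like cells the members' sum stood above wild type in the Mfn2 pool. The direction of the median there turned with the processing, from 0.14 to -0.11 with median-ratio scaling and to -0.23 with a 500-gene filter. The summed ratios were 1.083 (1.063 to 1.104) and 0.994 (0.971 to 1.017). In the Mfn2 pool 20 of 78 members were higher and 4 lower, where 43.9% of all genes were higher and 17.1% lower, and the members' median of 0.14 lay below the median of 0.21 over all genes. In the Rhot1 pool 9 were higher and 5 lower (26.7% and 21.0%), and the medians were 0.03 and 0.04. The 6 tumour markers, 3 at 10 CPM or more with Krt19 and Epcam at 0, summed to 441, 724 and 468 CPM, highest in the Mfn2 pool, and the 8 neutrophil markers to 119296, 92920 and 124067 CPM, lowest there. The part of these shifts in the member levels was not tested. Ndufa1 went against the class total, at 101, 58.9 and 60.9 CPM. Sdhc stood at 20.7, 45.1 and 31.5 CPM.

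Ndufa1 was below wild type in both knockout pools in tumour-, macrophage-, monocyte-, neutrophil- and T cell-like cells, with log2 ratios from -0.22 to -0.93. In dendritic cell-like cells it stood at 128, 132 and 135 CPM, log2 ratios of 0.04 and 0.07. The same single WT pool stands under all these ratios, so a property of that library and a property of its hosts cannot be told apart.

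Osteoclast- and neutrophil-like cells of the WT pool stood further from other myeloid cells than the hosts did from each other, whereas tumour-, macrophage- and dendritic cell-like cells of that pool were close. These class comparisons were chosen after the levels were seen. Osteoclast-like over macrophage-like cells had a ratio of 2.52 (2.48 to 2.56) for the sum, with 79 of 79 measured members higher, where 37.9% of all genes were higher and 35.9% lower. The complexes had ratios of 2.27, 3.42, 3.13, 2.38 and 2.63 from I to V. Cyc1 stood at 648 CPM against 129 and Uqcr10, a small complex III subunit, at 1551 against 369. Sdha stood at 382 against 100 CPM and Ndufb1 at 501 against 332 CPM, among the smallest differences. The comparison rests on 20 cells.

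Neutrophil-like over monocyte-like cells of the same pool had a summed ratio of 0.504, with 76 of 79 members lower and 0 higher, where 48.5% of all genes were lower and 28.9% higher. The median log2 ratio was -1.02 against -0.24 over all genes, and the 5 complexes had similar ratios, from 0.436 for complex II to 0.542 for complex III. Cox4i1 stood at 570 CPM against 1557 and Atp5o at 77.3 against 252. The members not past the limit were Atp5b at 514 against 612 CPM, Ndufa12 at 64.5 against 51.9 CPM and Atp5g2 at 11.1 CPM in both. Krt8, Krt18 and Hmga2 together stood at 38.5% of their tumour-like level in these neutrophil-like cells and at 8.45% in the monocyte-like cells. Median depth was 1153 against 3574 UMIs per cell. The part of tumour RNA or of depth in the contrast was not tested. Monocyte-like over macrophage-like cells had a ratio of 1.19, with 31 of 80 members higher and 5 lower, where 28.7% of all genes were higher and 30.9% lower. Ndufb1 stood at 552 against 332 CPM and Uqcrh at 714 against 457, while Ndufa12 stood at 51.9 against 86.9 CPM.

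Tissue-specific copies of subunits were mostly silent, with a single clear exception. In tumour-like cells of the WT pool 66340 of 66347 Cox4i UMIs (99.99%) were Cox4i1, the common form, the rest being Cox4i2, a form known from lung and hypoxia. The heart and muscle form Cox7a1 gave 0.60%, 0.64% and 0.65% of Cox7a UMIs in tumour-like cells, against 1.84%, 2.63% and 1.79% in macrophage-like cells. Cox6a2, the heart and muscle form of Cox6a, gave 0.345%, 0.23% and 0.09% of Cox6a UMIs in tumour-like cells. The Siglech-led cluster of the dendritic cell-like class (cluster 22, with 14, 3 and 11 cells) was the exception. There Cox6a2 gave 136 of 150 Cox6a UMIs (90.7%, exact Clopper-Pearson interval 84.8% to 94.8%), 34 of 40 (85.0%) and 64 of 73 (87.7%), at 2705, 4225 and 1575 CPM. Cox6a2 was first among the leading genes of that cluster, so its level there is a description of how the cluster was found. In the other dendritic cell-like cluster the UMIs were 1 of 220, 1 of 72 and 0 of 121; the 0 allows a share of up to 3.00%. Siglech marks plasmacytoid dendritic cells.

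The c subunit of the ATP synthase, which forms its rotor ring, is made from Atp5g1, Atp5g2 and Atp5g3, whose mature proteins are the same. Atp5g1 gave 56.4%, 54.3% and 55.2% of their UMIs in tumour-like cells, 60.2%, 60.2% and 58.6% in macrophage-like cells and 48.7%, 54.7% and 59.1% in neutrophil-like cells. The neutrophil-like intervals of wild type and Rhot1 touch (43.5% to 53.8% and 53.1% to 64.9%). Atp5g2 gave 2.42%, 2.21% and 1.75% in tumour-like cells, with 15.1, 12.6 and 10.9 CPM, and both Atp5g1 and Atp5g2 share 3' sequence with other genes, as given above.

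**Figure D4:**
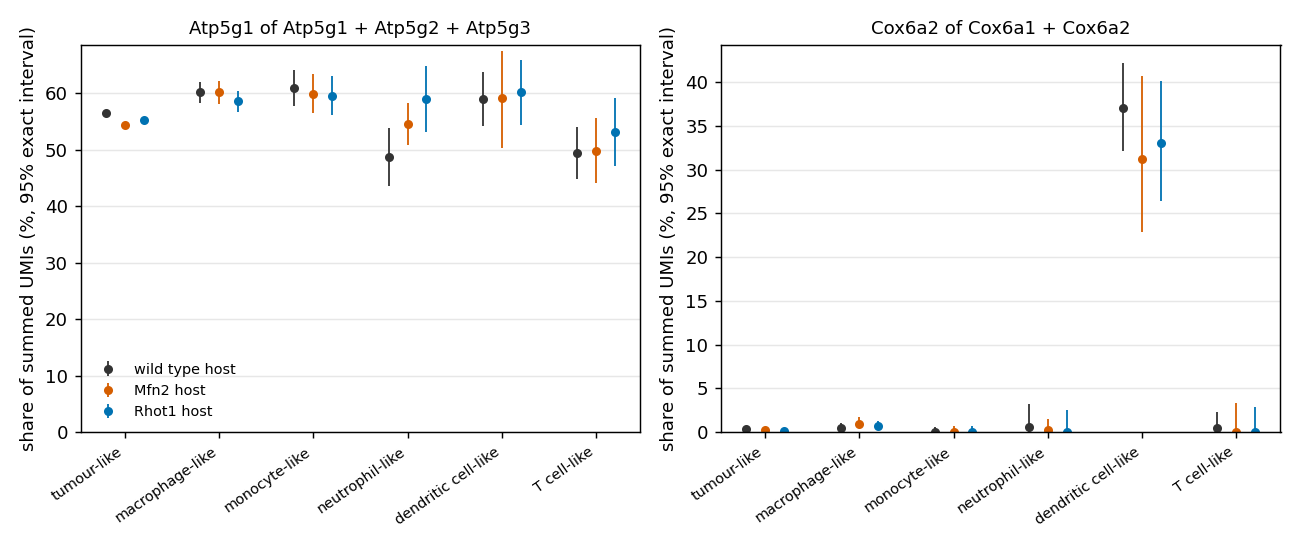
Share of Atp5g1 in the UMIs of the 3 Atp5g genes and of Cox6a2 in those of Cox6a1 and Cox6a2, in 6 classes and 3 pools, with exact 95% Clopper-Pearson intervals. The Cox6a2 share is near 0 in each class but the dendritic cell-like class, where it is 37.0%, 31.2% and 33.0%, and the Atp5g1 share lies near 50% to 60%.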

How the data were processed

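Droplet 3' single-cell RNA sequencing was available for 3 libraries, 1 per host genotype. The deposited values are UMI counts by gene and barcode. Cell Ranger 7.0.0 made them, per the file headers, with genome build mm10, per the submitters' processing notes. Annotation and intron handling: not given in the sources used here. The number of per-sample columns that matched no sample was 0.

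Barcodes needed 300 genes and no more than 15% mt- UMIs, and doublets called per library (273, 298 and 224 cells; 2.94%, 3.02% and 2.39%) were removed. Counts were scaled to 10000, and 2000 variable genes, 30 principal components and 15 neighbours were used for joint clustering with scanpy 1.11.5 and leidenalg 0.10.2 at resolution 1, giving 24 clusters. Classes were named from marker lists. The rule that scores clusters against them was revised several times after the clusters, and member levels in them, had been seen, and the size of the tumour-like class depends on it. Unnamed clusters entered no class.

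UMIs were summed per class and library and expressed per 1000000 UMIs of the class (CPM). A pseudocount of 5 CPM entered log2 ratios. Members were measured at 10 CPM or more in at least 1 library compared, and called higher or lower when the ratio without pseudocount passed 0.32 in log2 size. Levels have exact Poisson, shares exact Clopper-Pearson and ratios exact conditional binomial 95% intervals. They cover counting error only, which understates the error of classes of few cells. No test between libraries was possible. The steps were tested on simulated data. The members and lists were chosen with earlier results of these data known. Named genes are, per complex and comparison, those with the highest and lowest ratios at 50 CPM or more, those with the highest and lowest levels, all paralogues listed, and the 2 highest and 2 lowest of each further list or class. Others were named after their values were seen, among them Ndufb11, Ndufa3, Ndufc1, Ndufa6, Uqcr11, Cyc1, Cox6c, Cox6b1, Atp5j2, Atp5e and the genes of the comparisons between classes. Coordinates and 3' sequence came from GENCODE M21, in which all 87 members were found, 3 under other names (Ndufb1 as a non-coding RNA). Some results are not reported here. Alternatives changed the cell filter, doublets, clustering, depth, scaling, denominator, pseudocount and minimum level.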

Additional observations from a re-analysis of the deposited data

Results flagged for a closer look

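The summed member level of neutrophil-like cells stood above wild type in the Mfn2 pool, at a ratio of 1.08, while it stood below in tumour-, macrophage-, monocyte- and T cell-like cells of that pool. The difference between the classes was not tested. The median over all genes was 0.21 in the same cells. Tumour markers summed to 441, 724 and 468 CPM there in the WT, Mfn2 and Rhot1 pools, and their part in the result was not tested. The members' median of 0.14 turned to -0.11 with median-ratio scaling and to -0.23 with a filter of 500 genes.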

How the results depend on the processing

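No paired analysis was possible because each genotype was 1 library. The median of the members stayed below 0 in tumour-like and macrophage-like cells of both knockout libraries under each alternative run. It ran from -0.17 to -0.13 (Mfn2) and from -0.16 to -0.07 (Rhot1) in tumour-like cells, and from -0.17 to -0.12 and from -0.11 to -0.01 in macrophage-like cells. Of these 4 medians, the values that moved beyond counting error were, in macrophage-like cells, -0.12 (Mfn2) and -0.0073 (Rhot1) with 500 genes and at most 10% mt- UMIs, and -0.11 (Rhot1) with median-ratio scaling. For the Rhot1 pool, tumour-like values were -0.15 with clusters weighted alike and -0.16 with median-ratio scaling. The cause was not tested. Alternatives chosen after seeing the data, without tumour-like clusters 1 and 4, gave -0.16 and -0.13, and the largest neutrophil-like cluster alone gave 0.23 and 0.05.

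Medians of single complexes and other classes moved beyond that interval without turning in 17 cases, among them monocyte-like Rhot1 clustered without member genes (-0.017 from -0.06). Sign turned in 21 cases, all of medians of at most 0.043 in size but for neutrophil-like Mfn2 (0.14). With the 500-gene filter these were dendritic cell-like Mfn2 (-0.0019), neutrophil-like Mfn2 (-0.23) and Rhot1 (-0.14), macrophage-like complex I Rhot1 (0.054) and tumour-like complex II Rhot1 (0.012). With doublets kept they were T cell-like Rhot1 (-0.019), dendritic cell-like Mfn2 (-0.00086) and neutrophil-like Rhot1 (-0.066). With cells thinned to 1500 UMIs they were T cell-like (-0.013), dendritic cell-like (-0.0265), neutrophil-like (-0.078), macrophage-like complex I (0.023) and complex II (-0.048), all Rhot1. With median-ratio scaling they were dendritic cell-like Rhot1 (-0.034), neutrophil-like Mfn2 (-0.11) and Rhot1 (-0.0072) and macrophage-like complex II Rhot1 (-0.015). The rest were dendritic cell-like Mfn2 without the cell with most member UMIs (-0.0011), macrophage-like complex I Rhot1 clustered without member genes (0.013), and tumour-like complex II Rhot1 with unnamed tumour-marker clusters (0.013) or at 50 CPM or more (0.0051). The monocyte-like class was not found at Leiden resolution 0.5 or with doublets kept, so it has no value there. The dendritic cell-like class has no value when clustered without member genes. Macrophage-like cells of the wild-type library numbered 746, and 1486 with the 500-gene filter. Thinning kept 190, 226 and 163 of 700, 931 and 477 neutrophil-like cells, and 11, 2 and 4 of 45, 15 and 17 B cell-like cells.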

Other observations

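Summed member levels differed widely between unnamed clusters. Cluster 9, led by Lum, Mmp3 and Dcn, genes of matrix-forming cells, held 769, 237 and 233 cells in the WT, Mfn2 and Rhot1 pools. Its members summed to 20024, 20242 and 19568 CPM, or 1.011 times WT (1.002 to 1.019) and 0.977 times WT (0.969 to 0.986), closer to 1 than in the tumour-like clusters. Cluster 12, led by Rhox5 and Lgals1 and shallow, held 161, 182 and 254 cells at 29064, 25417 and 27483 CPM, above each tumour-like cluster. Cluster 11, led by Dst and Syne2, held 215, 349 and 347 cells at 10767, 9200 and 11547 CPM, below neutrophil-like cells. Its median share of mt- UMIs was 7.33%, 8.05% and 8.17%, against 0.979%, 1.17% and 1.36% over all kept cells. The part of this high mt- share in its member levels was not tested. In the Rhot1 pool clusters 9 and 12 stood below WT and cluster 11 above it, at 1.072 times WT (1.043 to 1.102). Cluster 8, with Arg1 and Ccl9 among its leading genes, held 847, 536 and 460 cells, at 0.950 times WT in the Mfn2 pool and 1.044 times WT (1.031 to 1.057) in the Rhot1 pool. Cluster 13 stood at 0.959 and 0.979 times WT, cluster 17 at 0.904 and 1.000 times WT, and cluster 20 at 1.061 times WT in the Rhot1 pool, with no ratio formed for its 9 Mfn2 cells.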
